A study of Mus musculus with 12 samples.

Results

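The comparison set neurons of the medial entorhinal cortex (MEC) against neurons of the neighbouring lateral entorhinal cortex (LEC) in mice that lack Naglu, and asked whether the 2 regions keep distinct expression profiles in the mutants. Its members are the mutant channels of all 12 dual-dye arrays of the series, which is 12 of 24 channels or 6 of 12 RNA samples: 3 from MEC and 3 from LEC. Each sample is the mean of its 2 dye-swapped arrays. The mutants were Naglu-/- females on C57BL/6, 2 months old, and the other channel of every array held RNA of a Naglu+/- female littermate of that age, which serves as the control. From each region, 500 neuronal cell bodies were cut by laser from Nissl-stained sagittal sections of 12 µm, guided by an atlas, and their RNA was amplified linearly before labelling. Whether an MEC and an LEC sample with 1 number share a mouse is not in the labels, and Naglu is missing from every cell of these animals, not from neurons alone.

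Naglu encodes a lysosomal enzyme that removes N-acetylglucosamine from heparan sulfate, and its loss in people causes Sanfilippo syndrome type B (mucopolysaccharidosis IIIB), a storage disease with severe effects on the brain. The entorhinal cortex is the main gateway between neocortex and hippocampus. Its medial division is known for spatially tuned cells and its lateral division for coding of objects and odours. Stellate cells rich in reelin (Reln) and pyramidal cells rich in calbindin (Calb1) or Wfs1 are classical cell classes of its superficial layers.

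Probes for Naglu itself were too dim to check the genotype. The brighter probe (chr11:100893407-100893466, build mm8) was well above background in 3 of 6 readings in each region of both genotypes. It read 5.89, 5.99 and 6.02 in MEC mutants and 5.92, 5.92 and 6.03 in LEC mutants on the log2 scale, and these values overlap those of the controls. Arrays and dyes were assigned through the authors' value table, because the table and the labels conflict: 5 of 6 LEC files match the column of a different LEC sample, and the sign of both replicate 2 pairs is opposite to their labelled dyes. Results that rest on replicate 2 are therefore also given without it. All MEC arrays were scanned on day 1 and all LEC arrays on day 2, so region and scan day cannot be told apart in any value below. The share of spots with a mutant signal well above background ran from 20.1% to 67.6% over MEC arrays and from 24.3% to 59.1% over LEC arrays.

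The captures carried neuronal RNA from both regions. Of 15 listed markers of excitatory neurons, 10 were well above background in all 6 mutant readings of MEC and 10 in LEC, among them Camk2a, Camk2b, Nrgn, Snap25 and Rbfox3. The vesicular glutamate transporter Slc17a7 reached only 3 of 6 readings in each region, as did the cortical factor Tbr1, and neither was tested. RNA of other cell types was present too: 10 of 21 microglial markers were above background in all 6 MEC readings and 9 in LEC, 10 of 17 astrocyte markers in each region, and 8 of 18 oligodendrocyte markers in MEC and 7 in LEC. Within such bulk captures, fewer cells of a type and less RNA per cell cannot be told apart.

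The 6 mutant samples separated by region. Over the 10894 genes tested, Pearson correlations of log2 values were 0.980 to 0.988 between MEC samples, 0.964 to 0.978 between LEC samples and 0.941 to 0.971 between regions. These are correlations across genes, which are not independent replicates. The leading principal component held 51.9% of the variance and placed the MEC samples at 15.8, 9.04 and 15.1 and the LEC samples at −8.64, −18.3 and −13.0. The next component, with 20.5%, set LEC replicate 2 (11.5) apart from LEC replicate 3 (−17.1), while the MEC samples lay close together. LEC thus varied more among its replicates than MEC did.

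**Figure D1:**
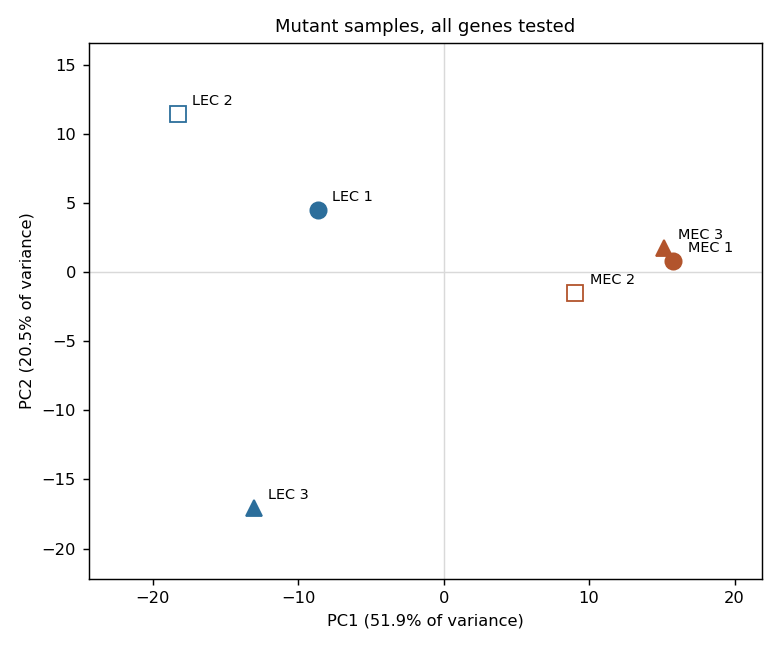
Scores of the 6 mutant samples on the principal components PC1 and PC2 of log2 intensity over all genes tested, with colour for region and marker shape for replicate. PC1 (51.9% of variance) has all 3 MEC samples above 0 and all 3 LEC samples below, and PC2 (20.5%) spreads LEC replicates 2 and 3.

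By limma, 411 of 10894 genes differed between the regions in mutants at an adjusted p under 0.05 (3.77%), 197 of them higher in MEC (1.81%) and 214 higher in LEC (1.96%). In all 411 the values of the 3 MEC and 3 LEC samples did not overlap, which held for 31% of all genes tested. Of the 411, 393 had a probe that passed the background filter in mutants of both regions, 13 passed it only through MEC, where they were higher, and 4 only through LEC. A limma p under 0.05 without adjustment was found in 2659 of the 10894 genes, and 44.2% of all genes lay above 0 (higher in MEC). Counts within the gene lists below are to be read beside these shares and the 3.77% called. The median difference over all genes was −0.02 (log2, MEC minus LEC), the median size was 0.108, and 21 called genes were past 2-fold higher in MEC and 17 in LEC. The count leaned on single samples. Without MEC replicate 3, 1 gene was called higher in each region (Plxdc1 in MEC and Zcchc12 in LEC), without MEC replicate 1 the counts were 5 in MEC and 2 in LEC, and leaving out MEC replicate 2 gave 58 and 34. Leaving out LEC replicate 1 gave 54 and 48, LEC replicate 2 gave 48 and 49, and LEC replicate 3 gave 266 and 442. Without replicate 2 of both regions, 35 genes were higher in MEC and 26 in LEC, and 51 of the 411 calls remained. Of 57 called genes named here, 23 still passed then: 12 of the 23 with the largest differences, given below, and Crym, Neurod6, Nrp2, Cdh20, Pcdh9, Kcna6, Vsnl1, Cplx1, Ier5, Ndufs4 and Mobp. All 411 kept their sign in each of these subsets, which share most samples with the full set. Differences between values that do not overlap cannot change sign when samples are left out, so this is no support. Scaling each array by its median alone, in place of quantile normalization, moved the median of all genes to −0.20 and gave 94 genes higher in MEC and 4039 higher in LEC, so that 2.27% of calls were higher in MEC against 47.9%. Directions below are under quantile normalization, and the regional differences named hold relative to the other genes on the array.

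**Figure D2:**
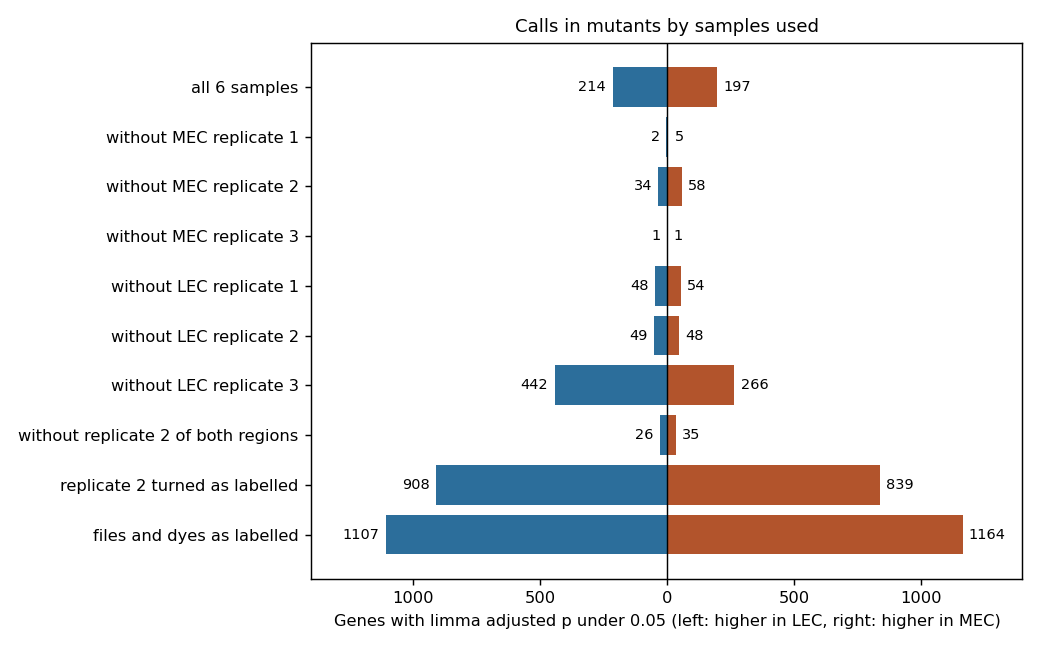
Number of genes with a limma adjusted p under 0.05 in the mutant comparison, higher in MEC to the right and higher in LEC to the left, for all 6 samples, with each sample left out, without replicate 2 of both regions, and with replicate 2 or all files and dyes as labelled. The counts run from 1 and 1 without MEC replicate 3 to 1164 and 1107 with files and dyes as labelled.

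Genes higher in MEC mutants were led by membrane, signalling and metabolic genes. Plxdc1, which encodes a transmembrane protein with a plexin repeat (probe at chr11:97739332-97739391, mm8), read 9.24, 8.91 and 8.64 in MEC and 6.84, 6.96 and 6.94 in LEC. All 3 LEC values lay within a narrow band, far below the lowest MEC value. The difference was 2.02 (SE 0.14, n = 3 per region) or 4.04-fold, with an adjusted p of 0.00829. Lgi2, a secreted relative of the epilepsy protein Lgi1 (chr5:52821816-52821875), read 10.54, 9.91 and 9.85 in MEC against 8.40, 8.18 and 8.01 in LEC. Its difference was 1.90 (SE 0.20, adjusted p = 0.0173), and its other probe gave 0.45.

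Slc24a2, a potassium-dependent sodium-calcium exchanger of neurons, stood at 8.96, 8.06 and 8.56 in MEC and 6.86, 7.12 and 6.79 in LEC (difference 1.60, adjusted p = 0.0251). Lef1, a transcription factor of Wnt signalling, stood at 8.16, 7.08 and 7.40 in MEC, while the LEC values of 6.15, 6.04 and 6.06 came from a probe above background in only 3 of 6 readings (difference 1.46, adjusted p = 0.0375). Rspo2, a secreted protein that strengthens Wnt signals, stood at 8.01, 7.65 and 8.04 in MEC and 6.90, 6.78 and 6.30 in LEC (1.24, adjusted p = 0.0257). Both Wnt genes were thus higher in every MEC sample than in any LEC sample. For dim probes the background offset shrinks differences: with the scanner software's processed signals, Lef1 differed by 3.14, Rspo2 by 1.99 and Cacna2d3 by 2.47. Cacna2d3, an auxiliary calcium channel subunit, had the smallest standard error of these 4 genes, at 7.57, 7.34 and 7.55 in MEC and 6.16, 6.43 and 6.16 in LEC (difference 1.24, SE 0.10, adjusted p = 0.00895).

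The other genes with a large MEC excess had varied roles. Fndc5, the precursor of irisin, differed by 1.53, with its other probe at 1.02. The glycogen branching enzyme Gbe1 differed by 1.32, and the cytoskeletal GTP-binding protein Septin6 by 1.31. The lysosomal protease Ctsl stood at 10.70, 9.98 and 10.37 in MEC and 9.17, 9.13 and 8.90 in LEC, a difference of 1.29 (SE 0.18, adjusted p = 0.0252). Amn, a membrane partner of the endocytic receptor cubilin, differed by 1.20 and had MEC values from 7.46 to 7.85 and LEC values from 6.37 to 6.50. Without replicate 2 of both regions, 7 of these 11 MEC genes still passed and Lgi2, Fndc5, Lef1 and Rspo2 did not.

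Genes higher in LEC mutants included a neuropeptide, a nuclear receptor and protocadherins. Zcchc12, a zinc-knuckle transcriptional co-activator (chrX:32630505-32630564), read 7.08, 7.33 and 7.25 in MEC and 9.04, 9.26 and 9.18 in LEC. Neither region spread by more than a small fraction of the gap between them. Its difference was −1.94 (SE 0.09), 3.84-fold higher in LEC, and its adjusted p of 0.00142 was the smallest of the 10894 genes. Penk, the precursor of the enkephalin opioid peptides (chr4:4060735-4060794), read 7.21, 7.17 and 8.02 in MEC and 10.50, 9.02 and 10.08 in LEC. For Penk the gap between the highest MEC and lowest LEC sample was much smaller than that between the means, and the difference was −2.40 (SE 0.40, adjusted p = 0.0362). Myh7, the slow myosin heavy chain of heart and muscle (chr14:53924903-53924962), read 6.45, 7.17 and 6.56 in MEC and 8.27, 9.70 and 9.42 in LEC. It differed by −2.40 (SE 0.38, adjusted p = 0.0321), with another probe at −2.43.

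Nr2f2, the nuclear receptor COUP-TFII, which takes part in patterning of the cortex (chr7:70227002-70227061), read 7.12, 6.93 and 7.03 in MEC and 8.36, 8.77 and 8.25 in LEC. It differed by −1.44 (SE 0.14, adjusted p = 0.0126), with other probes at −0.79 and 0.03, so its probes disagree. Pcdh8, a protocadherin regulated by neuronal activity, read 6.34, 6.59 and 6.81 in MEC and 8.12, 8.23 and 8.75 in LEC (−1.79, adjusted p = 0.0173). The related Pcdh1 differed by −1.19 from a brighter base, with 8.58 to 9.01 in MEC and 9.66 to 10.20 in LEC. Every LEC value of these genes lay above every MEC value.

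The neuronal nitric oxide synthase Nos1 read 6.82, 7.44 and 7.60 in MEC and 8.44, 9.37 and 8.59 in LEC, a difference of −1.51 (SE 0.29, adjusted p = 0.0445). Progranulin, Grn, a secreted protein that acts in lysosomes, read 7.97, 7.69 and 7.43 in MEC and 8.75, 9.19 and 8.99 in LEC, a difference of −1.28 (SE 0.16, adjusted p = 0.0211). Its direction was thus opposite to that of the protease Ctsl. Vat1l differed by −1.97 on the probe used and by 0.02 on its other probe. The tetraspanin Tspan33 differed by −1.41, with its other probe at −0.11. Hap1, the huntingtin-associated protein, differed by −1.29 and Fgfrl1, an FGF receptor without a kinase domain, by −1.19. Without replicate 2 of both regions, Penk, Zcchc12, Nr2f2, Fgfrl1 and Pcdh1 still passed, and the other 7 of these 12 did not.

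**Figure D3:**
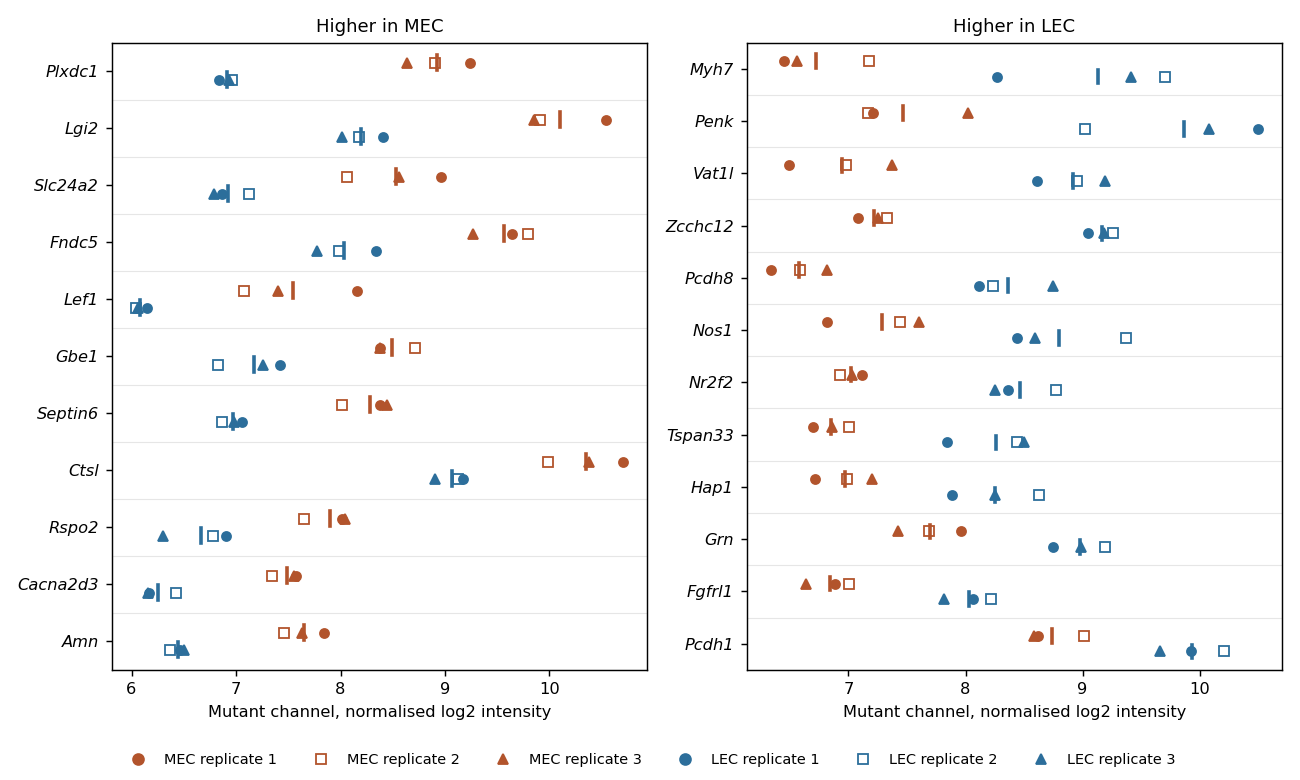
Normalised log2 intensity of the mutant channel for 11 called genes with a large excess in MEC (left) and the 12 with the largest excess in LEC (right), with a marker for each sample (open squares: replicate 2) and a tick for each regional mean. No MEC value overlaps a LEC value in any of the 23 genes, and levels of different probes are not comparable with each other.

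Of 19 tested markers of entorhinal layers, 2 passed (10.5%, against 3.77% of all genes), both higher in LEC. Of the 19, 6 lay above 0 (31.6%, against 44.2% of all genes). The list's median difference was −0.19 against −0.02 over all genes. With the scanner software's processed signals it was −0.54 against −0.03. Under median scaling it was −0.19 against −0.20, so the list did not differ from all genes there. An unadjusted limma p under 0.05 was found in 9 of the 19, against 2659 of 10894 over all genes. Crym, which binds thyroid hormone, read 8.15, 8.78 and 8.35 in MEC and 9.30, 9.46 and 9.37 in LEC (−0.95, SE 0.15, adjusted p = 0.0339). The complexin Cplx3 read 6.50, 6.49 and 6.37 in MEC and 6.76, 7.05 and 6.85 in LEC (−0.43, adjusted p = 0.0497), and its other probe gave −0.07. Calbindin, Calb1, was at 7.62, 7.99 and 8.65 in MEC and 9.05, 8.88 and 9.12 in LEC. These values do not overlap, but the spread in MEC left the difference of −0.93 (SE 0.24) short of the threshold (adjusted p = 0.0718).

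Reelin, Reln, which marks stellate cells, was at 8.23, 7.31 and 8.60 in MEC and 8.14, 7.06 and 7.00 in LEC. LEC replicate 1 reached the MEC range, and the difference of 0.65 had an SE of 0.41 (adjusted p = 0.378). Wfs1, the wolframin protein of the endoplasmic reticulum, was at 8.51, 8.75 and 9.64 in MEC and 7.87, 7.89 and 8.55 in LEC, with overlap between MEC replicate 1 and LEC replicate 3 (0.87, adjusted p = 0.151). The layer 5 factors Etv1 (−0.22, adjusted p = 0.404) and Bcl11b (−0.19, adjusted p = 0.183) were dim, with Etv1 above background in 2 of 6 MEC and 5 of 6 LEC readings and Bcl11b in 2 and 4. No layer gene other than Crym and Cplx3 passed.

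Markers of the claustrum and lateral cortex went both ways. Nr4a2, a nuclear receptor known from the claustrum and also induced by activity, read 7.73, 7.67 and 7.68 in MEC and 7.07, 6.70 and 6.41 in LEC, so it was higher in MEC by 0.97 (SE 0.15, adjusted p = 0.0324). Latexin, Lxn, a marker of lateral cortex, was at 7.44, 7.79 and 7.26 in MEC and 7.14, 7.20 and 6.81 in LEC (0.45, adjusted p = 0.141). Of the 8 genes of this list tested, Nr4a2 was called higher in MEC and Cplx3 higher in LEC. None of 10 tested markers of the hippocampus and subiculum passed limma, and 6 had an unadjusted p under 0.05 (2659 of 10894 over all genes). The closest were Ccn3 at −0.49 (adjusted p = 0.0559) and the kainate receptor subunit Grik4 at −0.39 (adjusted p = 0.0791).

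The teneurins and latrophilins are partner adhesion proteins that pair connected hippocampal and entorhinal fields, Tenm3 on the medial side. Tenm3 read 8.36, 7.30 and 7.38 in MEC and 7.37, 7.38 and 7.19 in LEC, so that MEC replicate 2 fell within the LEC range and MEC replicate 3 lay at its upper edge (0.37, SE 0.27, adjusted p = 0.447). None of the 7 genes tested passed limma, and 1 had an unadjusted p under 0.05. Adgrl1 came closest with −0.41 (adjusted p = 0.0684), but its other probes gave −0.04 and −0.07, and Adgrl3 stood at −0.14 (adjusted p = 0.352). Adgrl2, the latrophilin of the lateral network, was too dim to be tested.

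**Figure D4:**
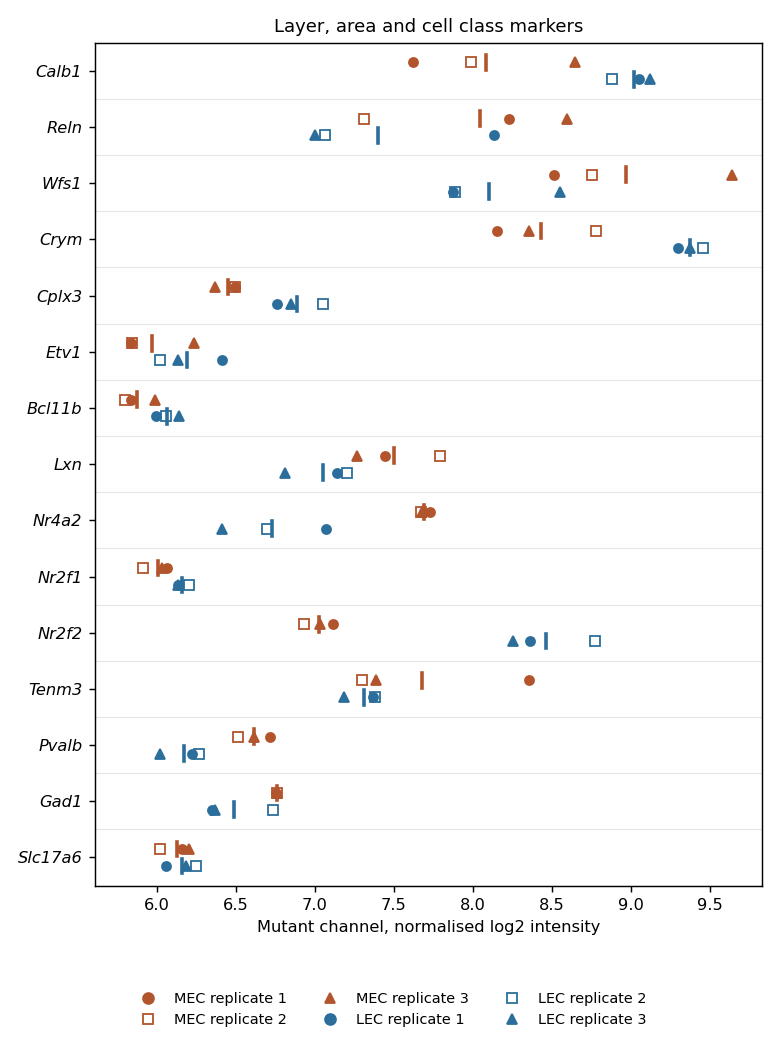
Normalised log2 intensity of the mutant channel for 15 markers of layers, areas and cell classes, with a marker for each sample (open squares: replicate 2) and a tick for each regional mean. Crym, Cplx3, Nr4a2, Nr2f2 and Pvalb passed limma, Calb1, Lxn, Nr2f1, Bcl11b and Gad1 separated the regions without passing, and Reln, Wfs1, Etv1, Tenm3 and Slc17a6 overlapped.

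Among 28 tested transcription factors that pattern cortical areas, 3 were higher in MEC and 2 in LEC (17.9% called, against 3.77% of all genes). Neurod6, a factor of excitatory cortical neurons, read 7.57, 7.00 and 7.20 in MEC and 6.23, 6.19 and 6.12 in LEC (1.08, SE 0.14, adjusted p = 0.0217). Bcl11a, a zinc finger factor, read 8.87, 8.91 and 8.88 in MEC and 8.34, 8.15 and 8.11 in LEC (0.68, adjusted p = 0.0193), with its other probe at 0.44. The chromatin organiser Satb1 was higher in MEC by 0.40 (adjusted p = 0.0257), although its LEC signal was above background in only 2 of 6 readings. On the LEC side were Nr2f2 and the nuclear factor Nfib, at 6.12 to 6.44 in MEC and 6.77 to 7.06 in LEC (−0.66, adjusted p = 0.0375; other probe −0.52). Nr2f1, a close relative of Nr2f2, stood at −0.15 (adjusted p = 0.21). Of these 5 called factors, Neurod6 and Nr2f2 passed without replicate 2 of both regions.

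Cell surface proteins of guidance and adhesion were split between the regions. Epha4, a receptor for ephrins, read 7.96, 7.64 and 7.74 in MEC and 6.49, 6.65 and 7.04 in LEC (1.05, adjusted p = 0.0269). It was the only one of 11 Eph receptors and ephrins to pass, and its other probe gave 0.11. Sema7a, a membrane-bound semaphorin, was higher in MEC by 0.88 (adjusted p = 0.0273). Its counterpart in LEC was Nrp2, a co-receptor for secreted semaphorins, which read 6.75, 6.72 and 6.98 in MEC and 7.84, 8.20 and 7.86 in LEC (−1.15, SE 0.12, adjusted p = 0.0173). These were the 2 calls among 21 tested guidance genes. Of 15 cadherins and protocadherins, Cdh20 (0.80, adjusted p = 0.0197) and Pcdh9 (0.93, adjusted p = 0.0211) were higher in MEC, and Pcdh1 and Pcdh8 higher in LEC. These calls were 26.7% of the list, against 3.77% of all genes. For Pcdh9 the 3 other probes gave 0.02 to 0.07. Without replicate 2 of both regions, 3 of the 4 cadherin calls remained.

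Ion channel genes showed single calls within families that did not move together. Of 16 sodium and calcium channel genes, the auxiliary subunits Cacna2d3 and Cacnb4 were higher in MEC and Cacnb3 higher in LEC (18.8% called, against 3.77% of all genes). Cacnb4 read 9.83, 9.58 and 9.57 in MEC and 8.78, 8.46 and 8.43 in LEC (1.10, adjusted p = 0.0181), and Cacnb3 differed by −0.39 (adjusted p = 0.0375). Both beta subunits thus passed in opposite directions. Of 24 potassium channel and related genes, Kcnip4, a partner of A-type potassium channels, was higher in MEC by 0.73 (adjusted p = 0.0375). Kcna6, a Shaker-type channel, read 8.75, 8.77 and 8.67 in MEC and 9.42, 9.78 and 9.53 in LEC (−0.85, adjusted p = 0.0198), but another probe gave 0.22.

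Receptor genes gave few calls. Of 13 tested GABA receptor genes, 1 was higher in MEC and 1 in LEC (15.4% called, against 3.77% of all genes). The LEC call was Gabbr1, a GABA-B receptor subunit, which read 7.52 to 7.64 in MEC and 8.04 to 8.18 in LEC (−0.50, adjusted p = 0.0252). Among 18 receptors for other transmitters and modulators, the alpha-1 adrenergic receptors Adra1a (−0.73, adjusted p = 0.0365) and Adra1b (−0.57, adjusted p = 0.0375) were both higher in LEC. Adra1a stood at 6.85, 7.04 and 6.69 in MEC and 7.44, 7.79 and 7.54 in LEC. None of 15 tested glutamate receptor genes passed limma, and 5 had an unadjusted p under 0.05, with Grm3 closest at 0.34 (adjusted p = 0.0759). None of the calls in these receptor families remained without replicate 2 of both regions.

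Genes of calcium binding and vesicle release that passed were mostly higher in MEC. Of 17 tested calcium-binding genes, 2 passed (11.8%, against 3.77% of all genes), 8 lay above 0 and the median was −0.09. Of the vesicle genes 11.1% were called, 15 lay above 0 and the median was 0.09. Vsnl1, a neuronal calcium sensor, read 7.95, 7.42 and 8.07 in MEC and 6.88, 6.63 and 6.56 in LEC (1.13, SE 0.18, adjusted p = 0.0321), with its other probe at 0.29. Parvalbumin, Pvalb, the calcium buffer of fast-spiking interneurons, read 6.72, 6.51 and 6.62 in MEC and 6.22, 6.27 and 6.02 in LEC (0.45, adjusted p = 0.048). It was the only one of 18 interneuron markers to pass. The GABA-synthesising enzyme Gad1 stood at 6.75 to 6.76 in MEC and 6.35 to 6.73 in LEC (0.27, adjusted p = 0.176). Of 27 vesicle genes, the calcium sensor Syt1 (0.82, adjusted p = 0.0383; other probes 0.34 and 0.53) and the complexin Cplx1 (0.85, adjusted p = 0.0197) were higher in MEC and Cplx3 higher in LEC. The vesicular glutamate transporter Slc17a6 differed by −0.04 (adjusted p = 0.817). Among 16 neuropeptide precursors, Penk alone passed.

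Activity-induced genes included 3 calls among 20 tested (15%, against 3.77% of all genes), all higher in MEC. Arc, a regulator of synaptic receptors, read 8.75, 9.01 and 8.76 in MEC and 8.16, 7.58 and 7.53 in LEC (1.08, SE 0.17, adjusted p = 0.0325). Ier5 read 8.74, 8.08 and 8.56 in MEC and 7.34, 7.58 and 7.52 in LEC (0.98, adjusted p = 0.0375), and the third was Nr4a2. Of the 20, 13 (65%) lay above 0, against 44.2% of all genes. The list's median was 0.05 against −0.02 over all genes, and −0.19 under median scaling. Without replicate 2 of both regions, 8 of the 20 lay above 0, the median was −0.025 and 1 of the 3 calls was left. The chaperone Hspa4l was the only call among 19 heat shock genes (0.55, adjusted p = 0.0375; other probes 0.45 and 0.41).

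Subunits of the respiratory chain and ATP synthase were called in 2 of 74 tested, or 2.7%, near the share over all genes. Ndufs4, a subunit of complex I, read 8.28, 8.30 and 8.37 in MEC and 7.51, 7.37 and 7.52 in LEC (0.85, SE 0.07, adjusted p = 0.00829). Cox5a, a subunit of cytochrome c oxidase, read 11.70, 11.49 and 11.30 in MEC and 10.60, 10.55 and 10.40 in LEC (0.98, adjusted p = 0.0197). Of the 74, 56 lay above 0 with a median of 0.12, but under median scaling 8 did, with a median of −0.39. Cytosolic ribosomal proteins were also called in 2 of 74, both higher in LEC: Rps14 by 0.71 and Rps6 by 0.37 on the log2 scale. Of these 74, 20 lay above 0 with a median of −0.09, and under median scaling the median was −0.66.

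Lysosomal genes, the compartment that Naglu loss affects, gave 2 calls among 36 tested, Ctsl higher in MEC and Grn higher in LEC (5.56%, against 3.77% of all genes). The median of the list was 0.08 against −0.02 over all genes, and −0.16 under median scaling. Ctsb, another lysosomal protease, was at 10.03, 10.04 and 9.82 in MEC and 9.65, 9.83 and 9.80 in LEC (0.20, adjusted p = 0.202). Microglial genes known to rise in storage disease gave no calls between the regions in mutants. Lysozyme, Lyz2, was at 8.94, 8.38 and 9.16 in MEC and 8.69, 9.14 and 8.17 in LEC (0.16, SE 0.28, adjusted p = 0.768). The protease Ctss was at 8.69, 8.36 and 8.60 in MEC and 8.49, 8.84 and 7.64 in LEC (0.23, adjusted p = 0.67), and the receptor Trem2 at 6.97 to 7.08 in MEC and 6.71 to 7.05 in LEC (0.17, adjusted p = 0.317). In Lyz2 and Ctss the regions overlapped, LEC replicate 3 was the lowest sample and LEC replicate 2 the highest of LEC. Without replicate 2 of both regions, Lyz2 differed by 0.62 (limma adjusted p = 0.191) and Ctss by 0.58 (adjusted p = 0.353). Trem2 was then at 0.24 (adjusted p = 0.259), and none of these 3 genes passed. Of the 12 genes tested, 10 then lay above 0 with a median of 0.14, against 9 and 0.08 with all samples. Over all genes, 5030 of 10894 then lay above 0, with a median of −0.01. Under median scaling with all samples, 0 of the 12 lay above 0, with a median of −0.18 against −0.20 over all genes. None of the 12 genes of this list tested passed limma, and 1 had an unadjusted p under 0.05.

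Markers of other cell types stood beside these results as follows. Of 12 oligodendrocyte genes, 2 were higher in MEC and 1 in LEC (25% called, against 3.77% of all genes). Mobp, a myelin protein, read 6.97, 6.92 and 6.80 in MEC and 6.03, 6.35 and 5.96 in LEC (0.78, adjusted p = 0.026). Mbp, myelin basic protein, differed by −0.93 on the probe used (adjusted p = 0.0217) and by 0.95 on its other probe, so its direction is not settled. The mean level of the oligodendrocyte list was 6.95 to 7.08 in MEC samples and 6.55 to 6.93 in LEC samples, narrowly without overlap. This was not particular to the list. Means of the excitatory neuron list (8.12 to 8.13 against 7.98 to 8.08) and the vesicle list (7.92 to 7.99 against 7.84 to 7.89) did not overlap either. The oligodendrocyte gene Mog was above background in 2 MEC readings and in 0 LEC readings. The part of these cells in the regional differences was not tested.

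No gene passed limma among 13 astrocyte, 17 microglial, 11 vascular and 10 blood, choroid plexus or meningeal markers, and 2, 2, 4 and 2 of them had an unadjusted p under 0.05. The astrocyte list averaged 7.91 to 8.16 in MEC samples and 7.51 to 8.48 in LEC samples, and the blood and meninges list 6.62 to 6.71 and 6.32 to 7.33, so LEC samples varied more than MEC samples in both. The microglial list averaged 6.65 to 6.72 in MEC and 6.54 to 6.82 in LEC, and the vascular list 6.45 to 6.50 and 6.43 to 6.63. Closest to the threshold were the smooth muscle gene Tagln (−0.31, adjusted p = 0.0583) and the glucose transporter Slc2a1 (−0.21, adjusted p = 0.111) of vessels. Others near it were the haemoglobin gene Hba-a1 (0.27, adjusted p = 0.131; other probe −0.10), the microglial receptors Cx3cr1 (−0.18, adjusted p = 0.135) and Fcrls (−0.16, adjusted p = 0.175), and the choroid plexus channel Clic6 (−0.19, adjusted p = 0.14). The astrocyte genes Clu (−0.42, adjusted p = 0.188) and glutamine synthetase, Glul (0.80, adjusted p = 0.201; other probe −0.04), had wide LEC ranges.

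Some genes were well above background in 1 region only, with every probe of the gene below it in the other: 12 in MEC mutants and 17 in LEC mutants. Dio3, the enzyme that inactivates thyroid hormone, was above background in 6 of 6 LEC readings and in none of 6 MEC readings. It read 6.48, 7.41 and 6.42 in LEC against 5.71, 5.90 and 5.80 in MEC, at least 1.84-fold higher in LEC by the background bound (adjusted p = 0.0736). Plch1, a phospholipase C, was above background in 6 of 6 MEC and none of 6 LEC readings, at least 1.45-fold higher in MEC (adjusted p = 0.0601). The bound sets the brighter group's mean against the higher of the dim probe's own signal and the lowest signal of any probe well above background on those arrays. The bounds of Calca (calcitonin and its related peptide), Cpa6, Pmaip1 and Lrrc49 on the MEC side were 1.17 to 1.20, and those of Slc23a3, Kcna5, Traf4 and Mzf1 on the LEC side 1.21 to 1.24. Of these 10 genes, Pmaip1 passed limma (0.29, adjusted p = 0.0474). All 10 were chosen for being above background in 1 region only, so their limma p-values are no separate support for a difference.

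The same regional comparison in the control channels called 533 genes (4.89%), 293 higher in MEC (2.69%) and 240 higher in LEC (2.2%). Without replicate 2 of both regions these fell to 33 and 66. Both genotypes were hybridised together on the same arrays, so the comparisons share every array and scan, and their agreement is no independent evidence. Side by side, Plxdc1 differed by 2.02 in mutants and 1.56 in controls, and Fndc5 by 1.53 and 1.55. Zcchc12 differed by −1.94 and −1.60, Penk by −2.40 and −2.65, and Nr2f2 by −1.44 and −1.09. Among the 23 genes compared, the widest gap was that of Myh7, at −2.40 in mutants and −1.44 in controls, followed by Vat1l at −1.97 and −1.35. The Myh7 gap depends in part on replicate 2. Its log2 ratio of mutant over control was 1.79 in LEC replicate 2, against −0.06 and 0.93 in LEC replicates 1 and 3. In MEC the ratio was 0.37 in replicate 2, against −0.39 and −0.21 in replicates 1 and 3. With replicate 2 turned as labelled, the mutant difference of Myh7 was −1.93, and without replicate 2 of both regions it was −2.34. Each of the genes compared kept its side in both genotypes.

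Some genes differed in their calls between the genotypes. Calb1 passed in controls (−0.94, adjusted p = 0.0372) with nearly the same difference as in mutants, and Wfs1 passed in controls (1.10, SE 0.09, adjusted p = 0.00187), where its spread was smaller. Of those 23 genes, Rspo2, Grn and Pcdh1 did not pass in controls, where they stood at 0.95 (adjusted p = 0.0653), −1.54 (adjusted p = 0.131) and −0.98 (adjusted p = 0.182). A call in 1 genotype alone does not show a difference between them, and this difference was tested within arrays, on the log2 ratio of mutant over control. No gene passed that test by limma (0 of 10894, smallest adjusted p 1.00), and 59 had an unadjusted p under 0.05. With replicate 2 turned as labelled, 0 passed, the smallest adjusted p was 0.055 and 996 genes had an unadjusted p under 0.05.

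The genes with the smallest unadjusted p in that test are given as values, since none passed. The regional difference was larger or more towards MEC in mutants for the steroid reductase Srd5a1 (0.25 in mutants and −0.14 in controls), Ust, which sulfates glycosaminoglycans (−0.05 and −0.52), Ppfibp2 (0.28 and −0.07), the fatty acid ligase Acsl1 (−0.08 and −0.36) and Acyp2 (0.68 and 0.34). Of these, Acyp2, an acylphosphatase, passed the regional test in mutants (adjusted p = 0.0475). The excess in MEC was smaller in mutants for Arid5b (0.29 and 0.81; other probe −0.65 in mutants), 9530080O11Rik (0.35 and 0.86), the mitochondrial DNA factor Tfam (0.25 and 0.74) and Pdlim1 (−0.02 and 0.47), and Tspan33 was at −1.41 and −1.02. In Ust, Arid5b, 9530080O11Rik, Tfam and Pdlim1 the controls passed the regional test and the mutants did not. Turning replicate 2 as labelled exchanges its mutant and control channels, so these gaps depend on its direction. The mutant values were then 0.54 for Arid5b, 0.59 for 9530080O11Rik, 0.51 for Tfam, −0.27 for Ust and 0.16 for Srd5a1. Without replicate 2 of both regions they were 0.29, 0.32, 0.27, −0.22 and 0.27.

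**Figure D5:**
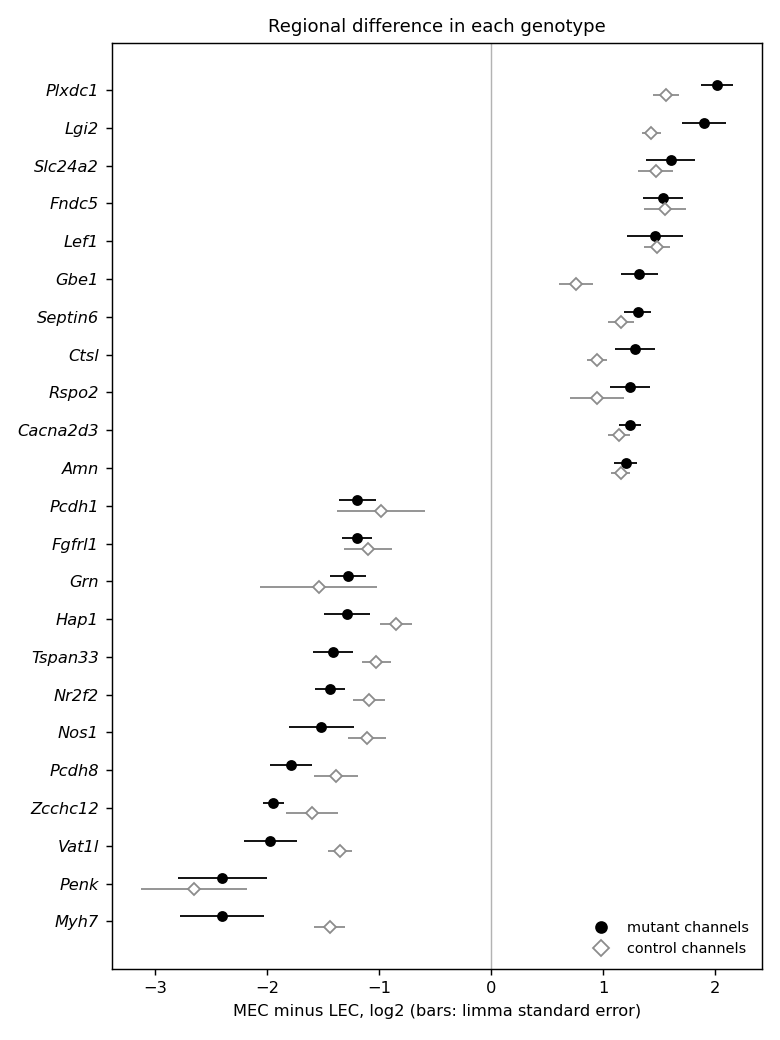
Difference between MEC and LEC (log2, MEC minus LEC) with limma's standard error for 23 genes with large differences in mutants, in mutant channels (filled circles) and in control channels of the same arrays (open diamonds), n = 3 samples per region. Genes were chosen by the mutant values, each lies on the same side of 0 in both genotypes, and Myh7 shows the widest gap (−2.40 and −1.44). The Myh7 gap depends in part on replicate 2.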

How the data were processed

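Per the file headers, the deposited scanner files give, per spot and dye, raw intensity (mean signal and local background), processed intensity and a log10 ratio made by the authors with Agilent Feature Extraction 9.5.1.1 (8.5.1.1 in the submitters' processing notes). The authors' deposited value table holds log2 ratios of unstated centring and direction. Each array and its dyes were assigned to the table column with the largest correlation in size (0.995 to 0.999; next at most 0.657) and its sign, over 9166 bright spots. Signals were corrected by normexp (offset 50), balanced by loess within arrays, and quantile-normalised on mean log2 intensity between arrays. The mutant channel was recovered and averaged over the 2 arrays of a sample. Probes that the scanner software marked as well above background in 4 or more of 6 readings within a single region and genotype were kept (12981), and the brightest probe stood for a gene (10894 genes, 9553 with a name). Of these, 464 were kept through MEC mutant readings alone and 1165 through LEC. Probe coordinates are mm8, and current names came from a RefSeq table. Tests are those of limma 3.58.1 (lmFit, eBayes; R 4.3.3, data.table package 1.17.8), two-sided, Benjamini-Hochberg adjusted over all genes, with a threshold of 0.05. SE is limma's, and 3 samples per region limit precision. P-values measure only the spread between these samples, and an exact test of 3 against 3 could not go below 0.1 for a single gene. The fit was checked on simulated data. Genes were named by rule: the 12 largest calls in each direction, up to 3 called members of each list in each direction (else the 2 with the smallest p), fixed markers, the 5 smallest p in each direction between genotypes, and up to 5 genes per direction above background in 1 region only. Results for some named items are not reported here. The samples, lists and rules were chosen with earlier results of these data known. Alternatives covered background correction, scaling, probe filter, probe choice, direction of replicate 2, dye, replicate block and left-out samples. Deviations from the regional means correlated at −0.07, 0.13 and −0.09 between MEC and LEC samples of the same number. Those of different numbers ran from −0.29 to 0.32. With 3 samples per region this cannot tell whether samples of the same number share a mouse.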

Additional observations from a re-analysis of the deposited data

How the results depend on the processing

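Of 57 called genes named in the report, followed over 21 alternatives, Plxdc1 and Zcchc12 kept direction and call in all of them, and Mbp alone reversed (0.0074, mean over a gene's probes). Counts are given as genes higher in MEC, then in LEC (197 and 214 in mutants as reported). They were 94 and 4039 with median scaling, 110 and 101 with no filter, 839 and 908 with replicate 2 turned as labelled, and 1164 and 1107 with files and dyes as labelled. They were 35 and 26 without replicate 2 of both regions, 653 and 844 with 12 arrays as units and the sample as a random block, 60 and 49 with mutant channels in Cy5 only, and 302 and 432 with limma's trend. Leaving out 1 sample gave 1 to 266 and 1 to 442. In controls (293 and 240) the LEC count was 453 with replicate 2 turned, files as labelled gave 456 and 717, dropping replicate 2 of both regions gave 33 and 66, and leaving out 1 sample gave 42 to 507 and 26 to 464. With the replicate number as a block, mutants gave 110 in MEC and 221 in LEC, and controls 37 and 38. Whether the numbers pair the samples is not known. The difference between genotypes had 0 calls in every alternative run for it. Causes were not tested.

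These uncalled genes changed sign. With median scaling the values were −0.23 for 9530080O11Rik, −0.30 for Arid5b, −0.38 for Ctsb, −0.28 for Ctss, −0.34 for Lyz2, −0.12 for Srd5a1, −0.072 for Tenm3, −0.35 for Tfam (adjusted p = 0.0298) and −0.11 for Trem2. Arid5b was −0.18 with the mean over probes and Bcl11b 0.062 with mutant Cy3 only. Slc17a6 was 0.14 with processed signals, 0.019 with the mean over probes, 0.042 with replicate 2 turned, 0.061 without it and 0.11 with Cy5 only. Pdlim1 was 0.025 without background correction, 0.069 with replicate 2 turned and 0.15 with files as labelled. With 1 sample left out, values ran from −0.091 to 0.092 for Pdlim1, −0.089 to 0.018 for Slc17a6, −0.093 to 0.40 for Lyz2, −0.22 to 0.049 for Ust and −0.11 to 0.48 for Ctss. Dim probes limit what can be told: the offset shrinks their differences, and 12 genes in MEC and 17 in LEC have only a bound in the other region.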

Other observations

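Several called genes outside the lists belong to the cytoskeleton and metabolism of neurons, and were chosen after their values were seen. The neurofilament subunits Nefl and Nefh, which set the calibre of long axons, were both higher in MEC mutants. Nefl read 8.89, 8.42 and 9.24 in MEC and 7.76, 7.94 and 7.62 in LEC (1.08, SE 0.20, adjusted p = 0.0434), and Nefh 7.56, 7.02 and 7.27 against 6.36, 6.38 and 6.34 (0.93, SE 0.13, adjusted p = 0.0252). Both kept all MEC samples above all LEC samples, and both also passed without replicate 2 of both regions. Lynx1, which modulates nicotinic receptors, read 8.01, 8.08 and 8.16 in MEC and 7.17, 7.07 and 7.19 in LEC (0.94, SE 0.07, adjusted p = 0.00829). Mapk10, a neuronal stress-activated kinase, differed by 0.78 (adjusted p = 0.0126), and the aspartate aminotransferase Got1 by 0.77 (adjusted p = 0.0257). Casp1, the inflammasome protease, stood at 7.38, 6.92 and 7.22 in MEC against 6.20, 5.97 and 6.14 in LEC (1.08, adjusted p = 0.0198), with 4 of 6 LEC readings above background. In controls the differences were 1.27 for Nefl, 0.76 for Nefh, 0.66 for Lynx1, 0.56 for Mapk10, 0.68 for Got1 and 0.91 for Casp1.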
